A study of Mus musculus with 7 samples.

Results

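A set of 10 genes that white fat cells are known for was followed in ribosome profiling of mouse epidermis with and without Pelota: Adipoq, Cfd, Retn, Plin1, Plin4, Cidec, Fabp4, Lpl, Car3 and Pck1. They were found by symbol among the 13167 transcripts of the table. All 10 were present, each on 1 transcript, and all 10 were listed in all 4 libraries and passed the count filter. Libraries from mice with a transgenic knockout (KO) of Pelo, 2 in number, were compared with 2 libraries from wild-type (WT) mice. Pelo encodes Pelota, which is known to release stalled ribosomes. All libraries came from material labelled epidermis, and the tissue tag reads "primary cell type". The labels do not give the strain, age, sex, promoter or Cre line, or the part of Pelo that was deleted, nor whether animals were pooled.

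White adipocytes keep fat in 1 large lipid droplet coated by perilipins. They take up fatty acids that lipoprotein lipase frees from circulating lipoproteins, and they secrete hormones such as adiponectin. In skin they form the dermal white adipose layer around and below the hair follicles, a layer that lies under the dermis proper and outside the epidermis. Ribosome profiling sequences the piece of mRNA under each ribosome, so the counts below measure ribosomes on coding regions and not RNA or protein amounts.

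Ribosomes on 9 of the 10 adipocyte genes were lower in KO, by 2.12-fold to 3.64-fold. The exception was Lpl, which encodes lipoprotein lipase and did not pass the test. Together the 10 genes held 5191 and 3736 coding footprints in KO replicates 1 and 2, against 13813 and 8180 in WT replicates 1 and 2. As a share of all coding footprints that was 0.105% and 0.0826% in KO libraries and 0.261% and 0.194% in WT libraries. The exact 95% binomial intervals, which cover counting error only, were 0.103% to 0.108% and 0.0800% to 0.0853% in KO, and 0.257% to 0.266% and 0.190% to 0.198% in WT. Both KO shares lay below both WT shares. The median log2 change of the 10 genes was −1.22, against −0.02 for all 10953 transcripts tested. In that comparison 39% of transcripts were called at the adjusted p threshold of 0.05 (edgeR quasi-likelihood test, Benjamini-Hochberg). Of all transcripts 19.9% were called higher and 19.1% lower in KO, and 6.56% were called and at least 2-fold lower, as 9 of the 10 were. Both KO libraries lay below both WT libraries for all 10 genes, which was the case for 36.5% of all transcripts. In bulk samples fewer fat cells and less RNA or fewer ribosomes per fat cell cannot be told apart. How much tissue from outside the epidermis each library held was not tested. The 3 RNA-seq libraries of the series were not analysed here.

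**Figure D1:**
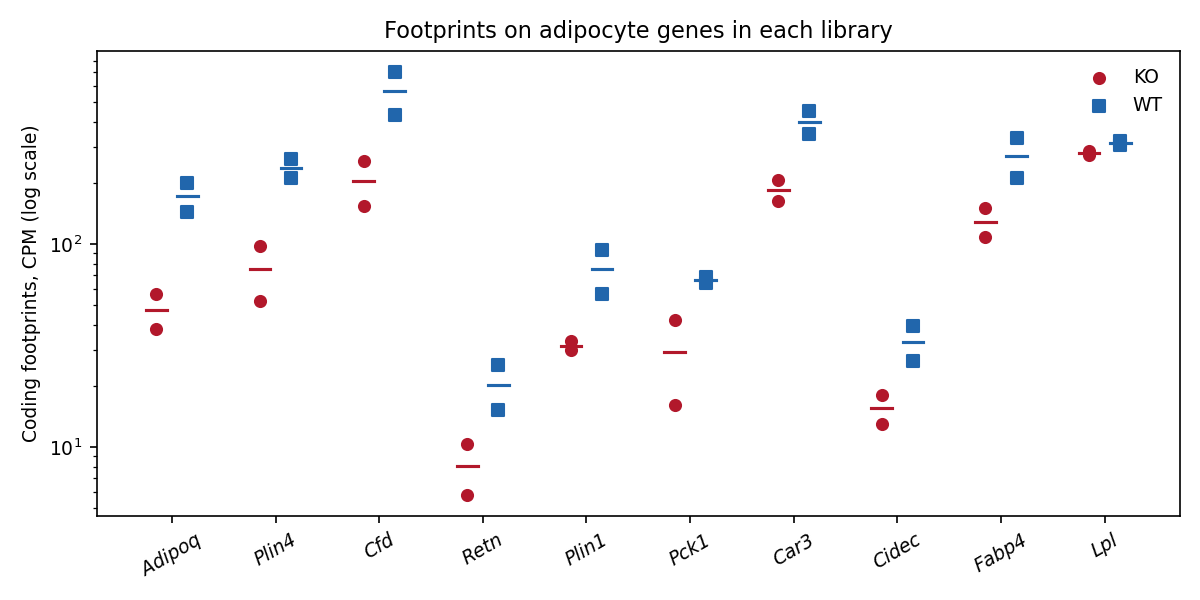
Normalised coding footprints (CPM, counts scaled to equal library size, log axis) on each of the 10 adipocyte genes in the 2 KO libraries (circles) and the 2 WT libraries (squares), with bars at the group means. Both KO points lie below both WT points for every gene, and the KO and WT points of Lpl lie close together.

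The epidermal keratins Krt5 and Krt14 were abundant in all 4 libraries, with 14401 footprints as the lowest value. The coding footprints numbered 4925876 and 4521561 in KO, and 5282276 and 4221675 in WT. Pelo had 24 and 21 footprints in KO libraries and 101 and 61 in WT libraries (log2 change −1.65, SE 0.245, adjusted p = 0.000807, edgeR), so the targeted gene was lower in both KO libraries. The 2 WT libraries differed in muscle genes. The 13 skeletal muscle markers held 0.0452% and 0.0481% of coding footprints in KO libraries and 0.226% and 0.0636% in WT libraries. Acta1 made up most of the KO sums, with 1723 and 1961 footprints in KO libraries and 2682 and 1339 in WT libraries. It was not called (log2 change 0.10), while the other 2 tested markers, Des (−2.13) and Mylpf (−2.37), were lower in KO. No label says whether replicates are separate animals, so the p-values weigh the difference between genotypes against a spread between libraries that may be technical.

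Promoters of the members were read from RefSeq for build GRCm38.p6 as windows from 250 bases before to 50 bases after each annotated start. Windows were matched by symbol for 7 of the 10 genes, all but Fabp4, Car3 and Lpl. Those of Adipoq, Plin4 and Pck1 are shown because they hold short elements known from promoters. A CCAAT box (CCAAT, or ATTGG on the other strand) was in the windows of Adipoq and Plin4, 2 of the 7 genes, and in 37.4% of all 32851 promoter windows. The core of the cAMP response element (TGACGT, or ACGTCA on the other strand) was in that of Pck1, whose promoter is known for cAMP control in liver, and in 7.51% of all windows. Capitals mark the matches, and each stretch is given 5′ to 3′ on the gene's strand.
Adipoq, chr16:23146497-23146526, plus strand: cactcATTGGctATTGGccttgactgggtt
Plin4, chr17:56109783-56109812, minus strand: taaggcttggggATTGGgcgcccagacgct
Pck1, chr2:173152970-173152999, plus strand: ggcctgccccttACGTCAgaggcgagcctc
The shown Adipoq stretch has matches at −34 and −27 from the start, and another match lies at −7. The direct repeat bound by the fat cell factor PPARG with RXR (AGGTCA, any base, AGGTCA) was in no member window and in 0.0396% of all windows. A single AGGTCA was in none and in 16.3%, the C/EBP palindrome (TTGC followed directly by GCAA) was in none and in 0.183%, and TATAAA was in none and in 13.6%. Both strands were searched for each motif, and a single AGGTCA is contained in each direct repeat. A match is a description of letters and not a binding site. CCAAT and TGACGT were searched after the windows had been read.

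Among the secreted products, adiponectin changed most. Adipoq encodes adiponectin, an insulin-sensitising hormone made almost only by fat cells. It had 257 and 163 coding footprints in KO libraries and 1141 and 623 in WT libraries. The higher KO library held fewer Adipoq footprints than the lower WT library. Scaled to equal library size with TMM factors (CPM, the unit of the normalised values here), Adipoq averaged 47.3 ± 13.3 CPM in KO and 172 ± 40.2 CPM in WT (mean ± SD, n = 2 each), or lower by 3.64-fold in KO epidermis (log2 change −1.86, SE 0.212, adjusted p = 0.000164, edgeR). Only 1.07% of all tested transcripts had a lower log2 change.

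Cfd encodes adipsin, which is complement factor D, the protease that starts the alternative complement pathway by cutting factor B. Cfd carried 1161 and 661 footprints in KO libraries and 4004 and 1869 in WT libraries and was the most covered of the 10 genes by count in both WT libraries. In both KO libraries Lpl had more footprints than Cfd, and so did Car3 in KO replicate 2. The 2 WT libraries lay apart by more than the 2 KO libraries, yet no KO library reached the lower WT library. Cfd averaged 205 ± 72.5 CPM in KO and 568 ± 193 CPM in WT (SD, n = 2 each; log2 change −1.47, SE 0.264, adjusted p = 0.00227, edgeR).

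Retn encodes resistin, a secreted protein of fat cells in mouse. It had the fewest footprints of the 10 genes, with 47 and 25 footprints in KO libraries and 144 and 66 in WT libraries (log2 change −1.34, SE 0.319, adjusted p = 0.00945, edgeR). KO replicate 1 and WT replicate 2 were the closest pair, at 10.4 and 15.2 CPM. Without WT replicate 1 the Retn change was −0.91 and lost its call (adjusted p = 0.0680, edgeR).

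The 3 lipid droplet genes were lower in KO as well. Plin1 encodes perilipin 1, the droplet coat that controls access of lipases in fat cells. It had 150 and 129 footprints in KO libraries and 529 and 246 in WT libraries (log2 change −1.26, SE 0.217, adjusted p = 0.00190, edgeR). The KO libraries were close to each other at 33.1 and 29.99 CPM, while the WT libraries stood at 93.1 and 56.8 CPM.

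Plin4 encodes perilipin 4, a large droplet protein whose coding region here spans 4152 nt. Plin4 had 443 and 226 footprints in KO libraries and 1203 and 1141 in WT libraries. It averaged 75.1 ± 31.96 CPM in KO and 237 ± 36.6 CPM in WT (SD, n = 2 each; log2 change −1.66, SE 0.244, adjusted p = 0.000773, edgeR). In KO, replicate 1 lay above replicate 2, at 97.7 and 52.5 CPM. In WT, replicate 2 was the higher library, at 263 CPM against 212 CPM in replicate 1.

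Cidec encodes a protein that lets lipid droplets merge into 1 large droplet. It had 82 and 56 footprints in KO libraries and 223 and 115 in WT libraries (log2 change −1.09, SE 0.232, adjusted p = 0.00553, edgeR). Among the 10 genes its profile over the 4 libraries lay nearest to their median profile, at a root mean square distance of 0.0869 in log2 units. That of Lpl lay farthest, at 0.599. The 10 genes themselves set this median.

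Of the genes for fatty acid handling, 1 fell and 1 did not pass the test. Fabp4 encodes the fatty acid carrier of the adipocyte cytoplasm, which macrophages and some endothelial cells also make. Fabp4 had 679 and 463 footprints in KO libraries and 1900 and 912 in WT libraries (log2 change −1.08, SE 0.221, adjusted p = 0.00446, edgeR). Per length of its coding region it was the most covered member in every library, with 442 and 317 CPM per kb in KO, against 986 and 621 CPM per kb in WT.

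Lpl had 1242 and 1240 footprints in KO libraries and 1749 and 1399 in WT libraries. It averaged 281 ± 10.1 CPM in KO and 315 ± 10.8 CPM in WT (SD, n = 2 each; log2 change −0.17, SE 0.109, adjusted p = 0.262, edgeR). Scaled to library totals alone, without TMM factors, the change was −0.34 and passed (adjusted p = 0.0362, edgeR), but that scaling also moved the median of all transcripts to −0.20. The 2 KO libraries lay just below the 2 WT libraries, and replicates of a genotype were close. Lpl is known from muscle, macrophages and other cells as well as from fat.

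The ratio of Lpl to the other members was higher in KO. The number of Lpl footprints per Adipoq footprint was 4.83 and 7.61 in KO libraries and 1.53 and 2.25 in WT libraries. Against the sum of the other 9 genes the ratio was 0.315 and 0.497 in KO libraries and 0.145 and 0.206 in WT libraries. Set against each of the other 9 in turn, the 2 KO ratios lay above the 2 WT ratios for 9 of 9. Lpl was singled out for its small change while the other 9 fell. Higher ratios in KO therefore follow from the changes already given and are no separate result. These 9 ratios share the Lpl counts and are not independent, and with 2 libraries per genotype an exact permutation test of a ratio cannot go below a two-sided p of 0.33.

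**Figure D2:**
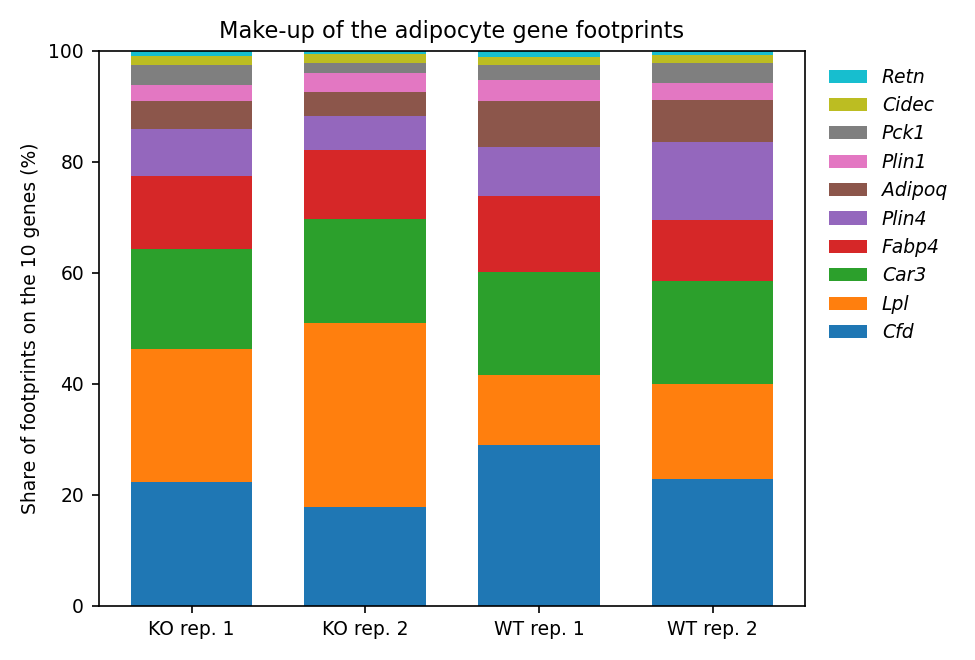
Share of each gene (%) in the footprints summed over the 10 adipocyte genes, for the 2 KO libraries and the 2 WT libraries. Lpl takes 23.9% and 33.2% in KO and 12.7% and 17.1% in WT, while Car3 takes 18.1% and 18.8% in KO and 18.5% and 18.5% in WT.

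The metabolic enzymes also fell. Car3 encodes carbonic anhydrase 3, an abundant cytosolic protein of mouse fat cells and of slow skeletal muscle. Car3 had 938 and 704 footprints in KO libraries and 2556 and 1511 in WT libraries (log2 change −1.11, SE 0.159, adjusted p = 0.000679, edgeR). WT replicate 1, the library richer in muscle genes, was the higher WT library for Car3 too; without it the change was −0.92 and Car3 kept its call. The part of muscle in the Car3 value was not tested.

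Pck1 encodes the cytosolic phosphoenolpyruvate carboxykinase, which fat cells use to make glycerol phosphate for storing fatty acids, and liver to make glucose. Pck1 had 192 and 69 footprints in KO libraries and 364 and 298 in WT libraries (log2 change −1.18, SE 0.319, adjusted p = 0.0169, edgeR). The KO libraries differed from each other, at 42.4 and 16.0 CPM, while the WT libraries stood at 64.0 and 68.8 CPM. Without KO replicate 1 the Pck1 change was −2.04 and without KO replicate 2 it was −0.64. DESeq2 gave −1.17 and did not call Pck1 (adjusted p = 0.198), nor did edgeR with unlisted counts set to 0 (adjusted p = 0.0819).

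**Figure D3:**
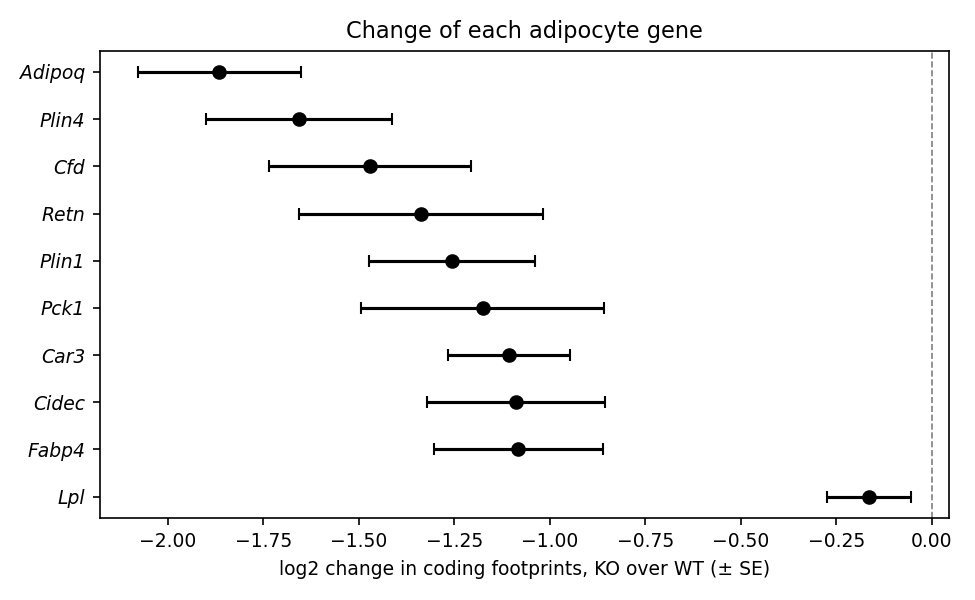
Change in coding footprints between KO and WT for each of the 10 adipocyte genes, as log2 of KO over WT with its standard error from the edgeR fit; the dashed line marks no change. The changes run from −1.86 for Adipoq to −1.08 for Fabp4, with Lpl apart at −0.17.

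Replicate 1 stood above replicate 2 for most members in both genotypes. In library-total CPM the ratio of replicate 1 to replicate 2 in KO was 1.45 for Adipoq, 1.61 for Cfd, 1.73 for Retn and 2.55 for Pck1, and 0.919 for Lpl. In WT it was 1.46 for Adipoq, 1.71 for Cfd, 1.74 for Retn and 1.72 for Plin1, and 0.999 for Lpl, 0.976 for Pck1 and 0.843 for Plin4. So Adipoq, Cfd and Retn were higher in replicate 1 of both genotypes, while Lpl was nearly level within each genotype.

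Compared per length, the members kept a similar order in all libraries. Fabp4, Cfd and Car3 were the 3 most covered members in each library. Fabp4 ranked 393 and 500 by footprint density among the 11696 and 11622 transcripts listed in KO libraries, and 111 and 166 among 12542 and 12113 in WT libraries. Adipoq ranked 1680 and 2363 in KO libraries and 399 and 565 in WT libraries. Lpl ranked 744 and 710 in KO libraries and 538 and 509 in WT libraries. Lpl and Adipoq, next in the order in WT, had 225 and 237 CPM per kb and 293 and 210 CPM per kb there, and their order differed between the 2 WT libraries.

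Few footprints of the members lay outside the coding region. Summed over the 10 genes, the 3′ UTR held 4 and 6 footprints in KO libraries and 15 and 12 in WT libraries, or 0.0768% and 0.159% of the members' counts over the 3 regions in KO libraries and 0.108% and 0.146% in WT libraries. The genotypes overlapped. The exact 95% intervals were 0.0209% to 0.196% and 0.0585% to 0.347% in KO, and 0.0606% to 0.179% and 0.0756% to 0.255% in WT. Over all transcripts the 3′ UTR share was 0.559% and 0.597% in KO libraries and 0.690% and 0.658% in WT libraries.

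The 5′ UTR of the 10 genes held 15 and 23 footprints in KO libraries and 25 and 14 in WT libraries, or 0.288% and 0.611% in KO libraries and 0.180% and 0.171% in WT libraries. The exact 95% intervals were 0.161% to 0.474% and 0.388% to 0.915% in KO, and 0.117% to 0.266% and 0.0933% to 0.286% in WT. That of KO replicate 2 lay above both WT intervals, and that of KO replicate 1 overlapped them. The share over all transcripts was also higher in both KO libraries, at 1.42% and 1.65% in KO libraries and 1.07% and 0.979% in WT libraries. Fabp4 held 7 and 11 of these footprints in KO libraries and 14 and 8 in WT libraries. That was 1.02% and 2.32% of its counts in KO libraries and 0.730% and 0.869% in WT libraries. The exact 95% intervals of Fabp4 were 0.410% to 2.09% and 1.16% to 4.11% in KO and 0.400% to 1.22% and 0.376% to 1.70% in WT. These intervals cover counting error and test nothing between genotypes, and an exact permutation test of 2 against 2 libraries cannot go below a two-sided p of 0.33.

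Markers of dermal fibroblasts and macrophages were also called lower, and endothelial markers at about the 19.1% of all transcripts. All 12 dermal fibroblast markers were tested: 7 were lower, none higher and 5 not called (median log2 change −0.56). They held 4.17% and 4.72% of coding footprints in KO libraries and 8.64% and 12.8% in WT libraries. Most of these sums was collagen, from Col1a1 (−1.41), Col1a2 (−1.47) and Col3a1 (−0.70). The 5 not called were Lum (−0.39), Pdgfra (−0.14), Thy1 (−0.04), Col6a1 (0.19) and Col6a2 (0.33). Of 12 macrophage markers, 6 were lower, none higher and 6 not called (median −0.38), at 0.148% and 0.128% in KO libraries and 0.201% and 0.239% in WT libraries. The complement genes C1qa (0.04), C1qb (0.07) and C1qc (−0.05) of macrophages were among those not called. Of 11 tested endothelial markers, 2 were lower, 1 higher and 8 not called (median −0.28, or −0.17 without KO replicate 1), at 0.0348% and 0.0373% in KO libraries and 0.0426% and 0.0448% in WT libraries. Keratinocyte markers went the other way, with 8 of 12 higher, 1 lower and 3 not called, at 8.21% and 7.62% in KO libraries and 3.41% and 3.30% in WT libraries. Each list had footprints in all 4 libraries. Not listed were Tek of the endothelial list in KO replicate 2 and Mc5r of the sebaceous list in either KO library. Of the 13 muscle markers, 10 were not listed in KO replicate 2. Nor were Actn3, Pvalb and Ttn in KO replicate 1, or Actn3 and Ttn in WT replicate 2. Without WT replicate 1 no endothelial marker was called lower. The part of these cell types in the adipocyte gene values was not tested.

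Sebaceous glands also store lipid, and 10 of 11 tested sebaceous markers were lower and 1 higher (median −2.08). The higher one was Krt79, a keratin also known from the hair follicle opening (log2 change 2.25). Krt79 held most of the list's footprints in KO but not in WT. The summed share was 0.680% and 0.827% in KO libraries and 0.467% and 0.497% in WT libraries, and without Krt79 it was 0.0477% and 0.0861% in KO libraries and 0.318% and 0.323% in WT libraries. Within KO the sebaceous list without Krt79 was lower in replicate 1, the library where Adipoq, Cfd and Pck1 were higher.

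**Figure D4:**
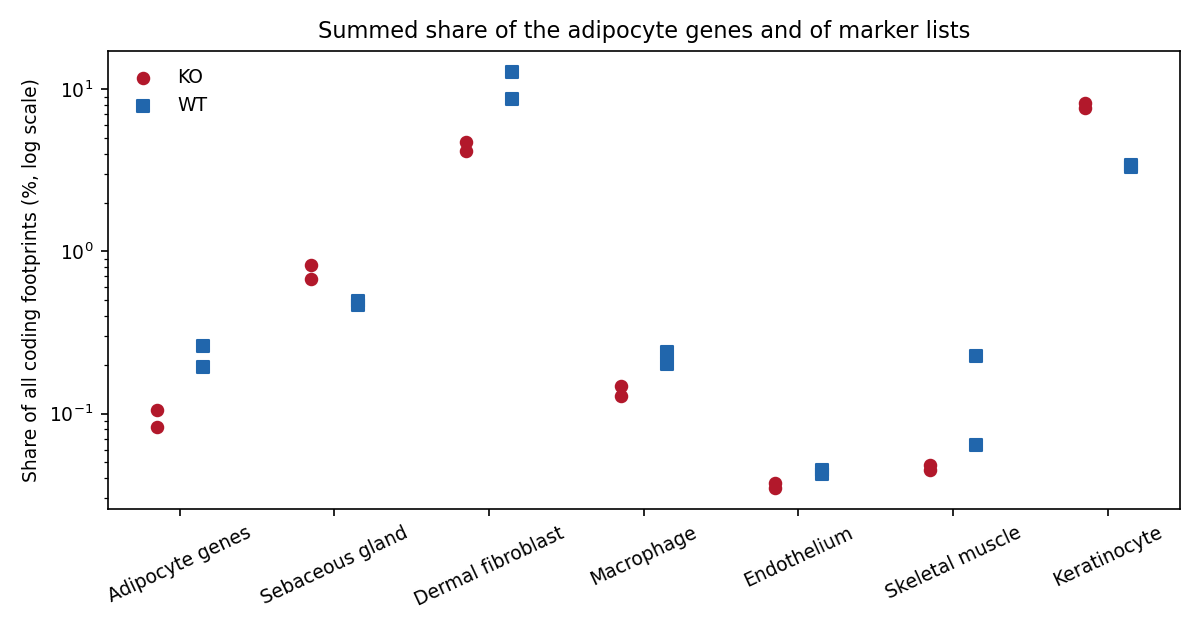
Share of all coding footprints (%, log axis) held by the 10 adipocyte genes and by 6 marker lists, with 1 circle per KO library and 1 square per WT library. The adipocyte genes lie at 0.105% and 0.0826% in KO and 0.261% and 0.194% in WT, and the keratinocyte list lies at 8.21% and 7.62% in KO and 3.41% and 3.30% in WT; the sebaceous sum is also higher in KO, where most of it is Krt79.

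Other genes of lipid droplets and lipolysis went down in 8 of 14 tested cases, with 1 up and 5 not called (median −0.56). The largest falls were G0s2, an inhibitor of the lipase Pnpla2 (−2.30), Mgll, which cleaves monoglycerides (−2.14), Aqp7, a glycerol channel of fat cells (−1.38), and Plin2, the perilipin of most other cells (−1.38). Pnpla2, the main triglyceride lipase, fell by 0.57 on the log2 scale (adjusted p = 0.0302, edgeR). Its activator Abhd5 rose (0.74), and Lipe, the hormone-sensitive lipase, had 307 and 189 footprints in KO libraries and 316 and 203 in WT libraries, and was not called (0.12, adjusted p = 0.657, edgeR). Plin2 is also strongly made in sebaceous glands. Aqp7 lost its call without KO replicate 2 (−1.03) or WT replicate 1 (−0.97), and Pnpla2 likewise (−0.38 and −0.37). With DESeq2 and with unlisted counts at 0 neither was called. The number of list genes called lower was 5 with either of those settings or without KO replicate 2, and 4 without WT replicate 1, where the list median was −0.37.

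Fat synthesis and glucose uptake genes were lower in 12 of 20 tested cases, with 1 higher and 7 not called (median −0.67). Thrsp, a regulator of fat synthesis, fell by 1.98 on the log2 scale. Lower too were the desaturase Scd1 (−1.93), the insulin-responsive glucose transporter Slc2a4 (−1.30) and Agpat2, which makes phosphatidic acid (−1.17). Among those not called were Acly (−0.30), Fasn (−0.24), Dgat2 (−0.24) and Acaca (0.05), and Gpd2 rose (0.71). DESeq2 called 9 genes of the list lower, and library totals alone 16. Without WT replicate 1 the list median was −0.58. Slc2a4 had 36 and 24 footprints in KO libraries and 108 and 61 in WT libraries. Scd1 had 1921 and 2977 in KO libraries and 12221 and 9160 in WT libraries. The part of sebaceous glands in the values of this list was not tested.

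Around lipoprotein lipase the genes went both ways, with 5 of 12 lower, 3 higher and 4 not called (median −0.41, or −0.22 without KO replicate 2 and −0.26 without WT replicate 2). Gpihbp1, which holds the enzyme on the capillary wall, had 7 and 8 footprints in KO libraries and 32 and 19 in WT libraries (−1.56, adjusted p = 0.00708, edgeR). The fatty acid receptor Cd36 fell by 1.20 and the fatty acid transporter Slc27a1 by 1.13. Fabp5, the fatty acid carrier of epidermis, rose (1.53). Lmf1, which matures the enzyme, stood at −0.44 and was not called (adjusted p = 0.0987, edgeR), but was with library totals (−0.61). Angptl4, its inhibitor, had 225 and 72 footprints in KO libraries and 228 and 242 in WT libraries (−0.52, adjusted p = 0.308, edgeR). Without WT replicate 2 the list had 3 lower genes. Without KO replicate 1 Angptl4 was called at −1.51, and without KO replicate 2 it stood at 0.06. Gpihbp1 was not called with DESeq2 (adjusted p = 0.0891) or with unlisted counts at 0 (adjusted p = 0.0534, edgeR).

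Among adipokines, complement partners and receptors, 6 of 20 tested genes were lower, 3 higher and 11 not called (median −0.45). C3, which factor D activity helps to cleave, fell by 2.2 on the log2 scale (1620 and 708 footprints in KO libraries and 7995 and 4296 in WT libraries), or by 2.86 without KO replicate 1. Cfb, the factor B that factor D cuts, rose (0.49, adjusted p = 0.0249, edgeR), a call lost with DESeq2 (adjusted p = 0.0730), with library totals, with unlisted counts at 0, and without KO replicate 1 or WT replicate 2. Cdh13, a cell-surface protein that binds adiponectin, fell by 1.46. The adiponectin receptors Adipor1 (−0.28) and Adipor2 (0.33) were not called. Scaled to library totals Adipor1 was called at −0.46 (adjusted p = 0.0415, edgeR). Adipor2 was called without KO replicate 2 at 0.52 (adjusted p = 0.0160, edgeR) and stood at 0.13 without KO replicate 1. Lcn2, a secreted carrier of iron-binding siderophores, rose with few counts (1.15), a call lost under the same settings as that of Cfb except library totals. Without KO replicate 1 or without WT replicate 2 the list had 1 higher gene. Lep, the hormone leptin, was not tested: it had 6 footprints in KO replicate 1, was not listed in KO replicate 2, and had 12 and 9 in WT.

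Of 15 tested adipocyte transcription factors, 8 were lower, 3 higher and 4 not called (median −0.51). Pparg, the master regulator of fat cells that sebocytes also use, had 31 and 59 footprints in KO libraries and 147 and 86 in WT libraries (−1.17, adjusted p = 0.0111, edgeR), and lost its call without WT replicate 1 (−0.96, adjusted p = 0.0680, edgeR) or with unlisted counts at 0 (adjusted p = 0.0514, edgeR). The zinc finger protein Zfp467 fell by 1.45 and the glucocorticoid receptor Nr3c1 by 1.34. Egr2, an immediate early factor, rose (1.72). Cebpb rose too (1.11), with 889 and 1031 footprints in KO libraries and 564 and 442 in WT libraries, as did Med1 (0.42). Cebpa, which acts with Pparg, stood at −0.12 and was not called (adjusted p = 0.524, edgeR).

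Brown and beige fat genes were sparse: 11 of 18 symbols were in the table and 5 were tested. Pank1, a coenzyme A synthesis enzyme, fell by 1.30 and Cidea, which sebocytes make too, by 0.89, and the other 3 were not called; without KO replicate 2 the list had 4 lower genes. The median of these 5 was −0.77, or −0.50 without KO replicate 1 and −1.16 without KO replicate 2. Ucp1, the uncoupling protein that defines brown fat, was not in the table. Of the 6 genes in the table but not tested, Dio2 had 39 and 44 footprints and Tnfrsf9 10 and 14 in KO libraries. Neither was listed in either WT library. Ppara, with 82 and 49 footprints, and Cox7a1, with 6 and 2, were listed in the WT libraries only. Zic1 and Cox8b were listed in both genotypes. Of 11 tested fat cell precursor genes, 3 were lower, 3 higher and 5 not called (median −0.25). The precursor and fibroblast receptors Pdgfra (−0.14) and Pdgfrb (−0.02) were not called. Pi16 rose by 0.96, with 1366 and 1191 footprints in KO libraries and 790 and 687 in WT libraries, and Cd24a rose by 0.56. Cd34, a surface protein of precursors and follicle stem cells, fell by 1.36, the transcription factor Gata3 by 1.34 and the microfibril protein Mfap5 by 1.34, or by 2.33 without KO replicate 1. Scaled to library totals alone, 6 of these genes were lower and 2 higher (median −0.43). The transcription factor Gata2 rose (1.27), with 47 and 37 footprints in KO libraries and 17 and 22 in WT libraries, a call lost without WT replicate 1.

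**Figure D5:**
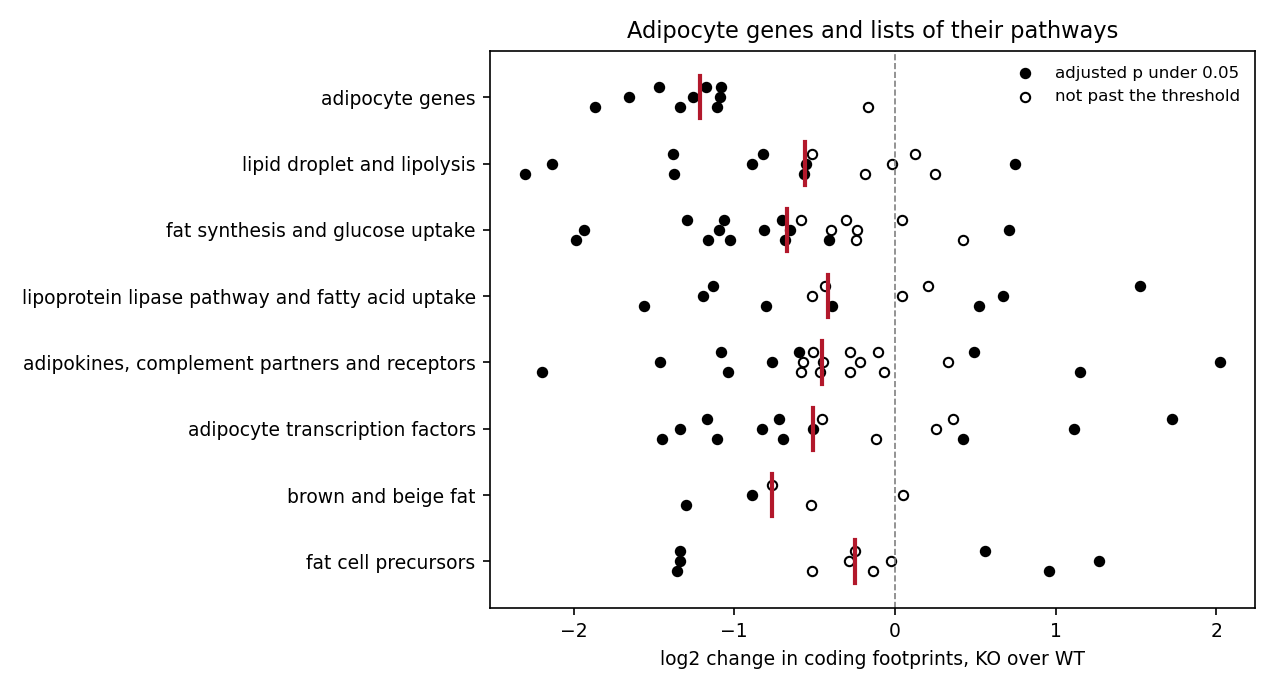
Change in coding footprints (log2 of KO over WT) of each tested gene in the adipocyte set and in 7 lists of related genes; filled points have an adjusted p under 0.05, open points do not, and the vertical bar is the list median. The medians run from −1.22 for the adipocyte genes to −0.25 for fat cell precursors.

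Among 6047 other transcripts with a mean of at least 100 footprints, the 5 nearest to the median profile of the members over the 4 libraries were Lamc3, a laminin chain, Robo1, a guidance receptor, Fgfr2, a fibroblast growth factor receptor, Cldn23, a claudin, and Lrp4, a receptor of the LDL receptor family. Their root mean square distances ran from 0.0637 to 0.121 in log2 units, over 4 libraries and without a test. Within 0.2 log2 units lay 42 such transcripts, so 4 points do not single out few genes. So near lay also 6 of the 10 members, which themselves set the median profile. Lamc3 had 219 and 145 footprints in KO libraries and 572 and 325 in WT libraries, a log2 change of −1.10.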

How the data were processed

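Ribosome footprints were measured in 2 KO and 2 WT libraries. Per the file headers, the authors deposited raw counts of footprints for the whole transcript, 5′ UTR, coding region and 3′ UTR, with region lengths, on mm9 gene annotations. Tools in the submitters' processing notes are TopHat2 2.0.10, Bowtie2 2.2.6 and CASAVA 1.8, with mm9 and hg19 as builds and no roles stated. The treatment of reads shared between genes is not stated there. The 2 deposited count tables, described as full-length and short footprints, are byte-identical, so the length class is unknown. Counts are listed only above 0.01 coding footprints per nt. The 24 columns of densities, sums and ratios were not used.

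The members and lists were chosen with earlier results of these data known. All transcripts listed in all 4 libraries with at least 10 counts in at least 2 (10953) were fitted with edgeR 4.0.16 in R 4.3.3 (TMM, quasi-likelihood F test, Benjamini-Hochberg, 0.05). The SE is the log2 change divided by the square root of F. Library-total CPM are used only where named. Coding totals of 4221675 to 5282276 set the precision, and intervals are exact Clopper-Pearson. Simulated counts for 10921 genes gave calls for 10.6% of genes at a set log2 change of 0.5, 79.1% at 1 and 100% at 2. Of the calls, 3.79% fell on unchanged genes. Few genes were changed there, none of low count, and spread followed abundance alone, so these rates need not hold for the data. Named genes are the 10 members, Pelo, up to 4 called genes with the largest change per list, direct partners, and the 5 nearest profiles. A gene that the rule picked is not reported here. Any further gene was chosen for naming with its values known. Replicate numbers are shared between genotypes, but the deviations of same-numbered libraries correlated at −0.01 across genes, so the block is only an alternative. Alternatives were DESeq2 1.42.0, library totals, no count filter, unlisted counts at 0, the replicate block and each library left out.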

Additional observations from a re-analysis of the deposited data

How the results depend on the processing

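All 10 adipocyte genes kept a negative log2 change under all 9 alternatives, and 86 of 90 gene-by-alternative results kept their side of the threshold. The exceptions were Pck1 (−1.17 with DESeq2 and with unlisted counts at 0, not called), Retn (−0.91 without WT replicate 1, not called) and Lpl (−0.34 with library totals alone, called). The number of adipocyte genes called lower, 9, lay between 8 and 9 with any 1 library left out and was 10 with library totals, 8 with DESeq2 and 9 with the replicate block. The block called 2125 transcripts lower and 2212 higher, against 2093 and 2184 without it, and changed no call of a member. DESeq2 called 2669 transcripts in all and 1177 lower, against 4277 and 2093 with edgeR; the cause was not tested. Library totals alone called 3023 lower and 1501 higher. The mean share of the 10 genes, 0.0940% in KO against 0.228% in WT, was 0.149% against 0.361% when the members and the 100 most abundant other transcripts left the denominator, and 0.0749% against 0.168% without Cfd, as both alternatives are built to move it; the WT over KO ratio ran from 2.06 to 2.78 over the alternatives. Among other named genes not called, signs turned for Lipe (−0.059 with library totals, and −0.22 to 0.40 with 1 library left out), and, with 1 library left out, for Cebpa (−0.25 to 0.0098), Angptl4 (−1.51 to 0.061) and Cfp (−0.30 to 0.13). G0s2 and Gpihbp1 missed the count filter when either WT library was left out. Of the related lists, adipokine genes were lower in 10 cases and endothelial markers in 6 with library totals, against 6 and 2; with DESeq2 lipolysis genes were lower in 5, lipoprotein lipase genes in 3 and endothelial markers in 0 cases, against 8, 5 and 2, and adipokine genes higher in 1, against 3; with unlisted counts at 0 macrophage markers were lower in 3, against 6. Depth limits the UTR values, which rest on few footprints.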

Other observations

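Paralogs of the 10 genes went both ways: of 16 tested, 6 were lower, 4 higher and 6 not called (median −0.00, against −0.02 for all transcripts, and −0.17 without KO replicate 1 or 0.05 without KO replicate 2). In the resistin family Retnla, which macrophages activated by type 2 cytokines secrete, had 58 and 17 footprints in KO libraries and 641 and 442 in WT libraries (log2 change −3.66, SE 0.320), and ran from −4.75 to −3.07 without 1 KO library. Among carbonic anhydrases, Car12, a membrane-bound form, had 343 and 323 footprints in KO libraries and 62 and 79 in WT libraries (2.40, SE 0.203), and Car6, the secreted form, 69 and 189 in KO libraries and 57 and 33 in WT libraries (1.72, SE 0.435). Car6 stood at 0.77 without KO replicate 2 and was not called with DESeq2 (adjusted p = 0.0754). Of the 5 paralogs in the table but not tested, Car2 had 102 and 123 footprints in KO libraries and 11 in WT replicate 1. It was not listed in WT replicate 2. Retnlg, Fabp3 and Car4 were listed in WT only, with at most 15 footprints, and Car11 in both genotypes. Pck2, the mitochondrial form of the Pck1 enzyme, fell by 0.98 on the log2 scale. The perilipins Plin2 (−1.38) and Plin3 (−0.82) fell, and the endothelial lipase Lipg, a relative of Lpl, had 144 and 133 footprints in KO libraries and 81 and 60 in WT libraries (1.15, SE 0.159).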
